A study of Homo sapiens with 4 samples.

Results

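Expression of 10 fibroblast growth factor (FGF) genes, the ligands FGF1, FGF2, FGF5, FGF7 and FGF18 and the receptors FGFR1, FGFR2, FGFR3, FGFR4 and FGFRL1, was examined among 18417 genes measured on 4 microarrays. The genes were listed by name, with earlier results of these data known. The family was chosen by the measured FBP1 minus control values of FGF5, which were above 0 in both lines. Each of the 10 had 1 probe set annotated to it alone, and no gene was left out for low intensity. The arrays came from MDA-MB231 and Hs578T, established human breast cancer lines of the basal-like class per the labels, each as a control and as stable clones expressing FBP1, the gluconeogenic enzyme fructose-1,6-bisphosphatase. All cells were grown with serum and harvested in the logarithmic phase of growth. The 4 groups held 1 array each. The labels state neither the promoter that drives FBP1, nor what the control cells carry, nor how many clones an array represents. In bulk RNA, fewer cells expressing a gene and less RNA per cell cannot be told apart.

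Secreted FGFs bind receptor tyrosine kinases together with heparan sulfate chains of the cell surface, and the receptors signal through adaptor proteins to the RAS and ERK pathway. The pathway induces transcription factors such as ETV4 and, as feedback, inhibitors such as the Sprouty proteins and the ERK phosphatase DUSP6. FGF1 and FGF2 leave cells without a classical signal peptide, FGF5 is best known for ending the growth phase of hair follicles, and FGFR1 is the main FGF receptor of mesenchymal cells.

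Median log2 intensity over all probe sets lay between 7.83 and 7.86 on the 4 arrays, with no repeated array in any group. The introduced gene FBP1 went from 9.83 to 13.07 between the MDA-MB231 arrays, and from 6.35 to 13.35 between those of Hs578T. Of 7 basal-like markers, 4 were measured on a probe set of their own, EGFR at 10.63 to 11.05, KRT14 at 8.45 to 9.62, CDH3 at 6.94 to 8.18 and KRT5 at 6.80 to 6.93, and KRT6B, KRT17 and FOXC1 were not analysed here. Of 7 luminal markers, the hormone receptor genes ESR1 (6.64 to 6.80) and PGR (5.61 to 6.36) were the lowest, and the keratin genes KRT8 (9.58 to 13.10) and KRT18 (12.33 to 12.71) the highest. The deposited values carry no detection calls, so a yardstick for dim values was set at log2 6.16, the 25th percentile over the means of probe sets. FGF7 lay below it on all 4 arrays, and the other 9 genes lay above it on every array. The yardstick is no detection limit, and 15946 of the 18417 genes had means at or above it. FGF2 on the MDA-MB231 arrays (6.79 and 6.95) and FGFR2 on the Hs578T arrays (6.72 and 7.05) lay near ESR1. The fold differences of FGF2 and FGFR2 between the lines rest on those low values.

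FGF1, FGF2 and FGF5, ligands that activate FGF receptors, had the largest differences of the 10 genes with FBP1 in Hs578T, each higher than in the control. In MDA-MB231 the largest were those of FGF5 and FGF1, and FGF2 (log2 0.16) was just below FGF7 (0.18) and FGFRL1 (0.17). These differences between FBP1 and control arrays rest on 1 array per group and include the one that prompted the list, so they are given as values with no test. The control and FBP1 arrays of MDA-MB231 gave FGF5 log2 intensities of 9.51 and 9.98, and those of Hs578T gave 10.26 and 10.99. From low to high, the order was MDA-MB231 before Hs578T, and control before FBP1 inside each line, so the lines did not overlap. FGF5 was 1.38-fold higher with FBP1 in MDA-MB231 (log2 0.47) and 1.65-fold higher in Hs578T (log2 0.72).

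FGF1, the ligand that binds every FGF receptor, had the largest difference of the 10 in Hs578T. Log2 intensities were 8.02 (control) and 8.43 (FBP1) for MDA-MB231, against 7.30 and 8.57 for Hs578T. The Hs578T control was the lowest of the 4 arrays and Hs578T with FBP1 the highest. FGF1 was 1.33-fold higher with FBP1 in MDA-MB231 (log2 0.41) and 2.42-fold higher in Hs578T (log2 1.27).

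FGF2, the basic fibroblast growth factor, gave 6.79 (control) and 6.95 (FBP1) for MDA-MB231, against 10.66 and 11.30 for Hs578T. Both MDA-MB231 arrays were far below both Hs578T arrays. With FBP1 it was 1.56-fold higher in Hs578T (log2 0.65) and 1.12-fold higher in MDA-MB231 (log2 0.16).

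FGF7, the keratinocyte growth factor, gave 5.24 and 5.41 for MDA-MB231 and 5.25 and 5.36 for Hs578T, control before FBP1. FGF18, a ligand known from cartilage and bone growth, gave 7.57 and 7.50 for MDA-MB231 and 7.60 and 7.61 for Hs578T. Both were nearly level over the 4 arrays, with ranges of 0.18 and 0.11 log2.

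**Figure D1:**
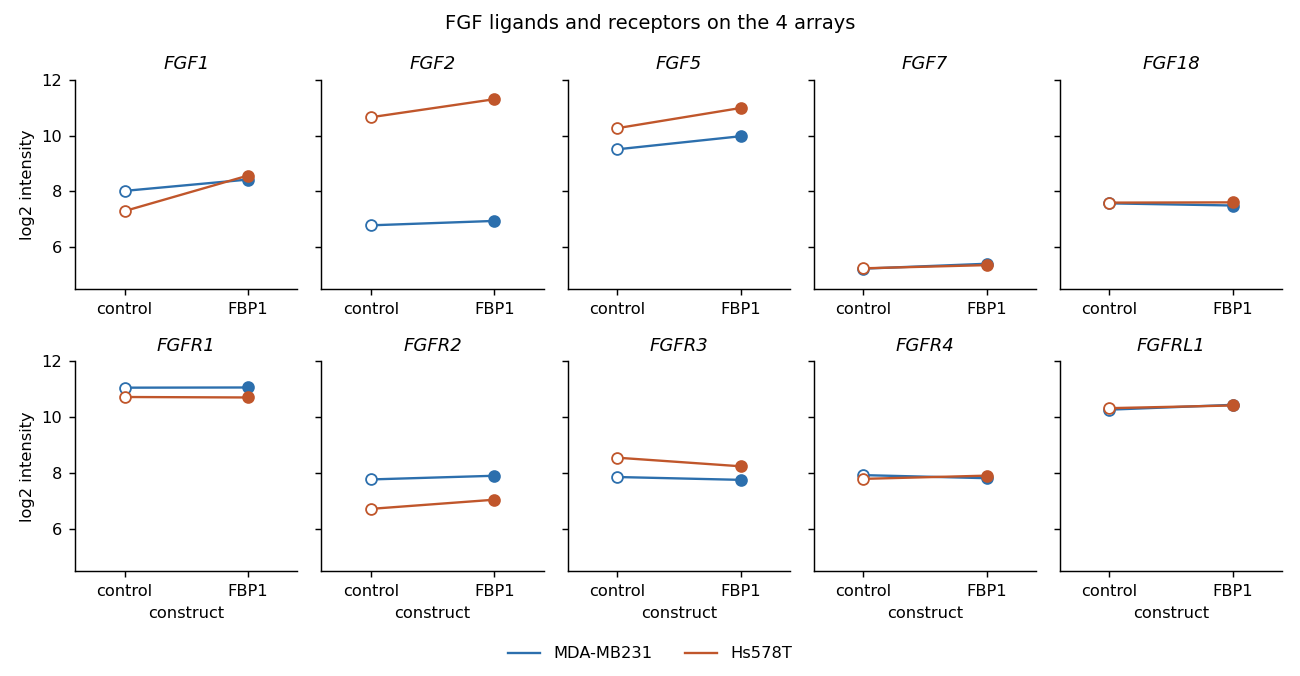
Log2 intensity of each gene (vertical axis) in control and FBP1 arrays (horizontal axis), 1 panel per gene, 1 line per cell line and 1 point per array, with open points for controls. FGF2 lies at 6.79 and 6.95 for MDA-MB231, against 10.66 and 11.30 for Hs578T, and FGF1, FGF2, FGF5, FGF7, FGFR2 and FGFRL1 slope upward in both lines.

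At the size of 1.5-fold (log2 0.58), 3 of the 10 genes, the ligands FGF1, FGF2 and FGF5, were higher with FBP1 in Hs578T, where 1.4% of all 18417 genes were. In MDA-MB231, 0 of the 10 reached that size, and 0.353% of all genes did. In neither line was any of the 10 lower by 1.5-fold, against 0.337% of all genes in MDA-MB231 and 1.57% in Hs578T. Values were above 0 in both lines for 6 of the 10 genes, namely FGF1, FGF2, FGF5, FGF7, FGFR2 and FGFRL1, and for 27.8% of all genes. The median difference of the 5 ligands was 0.18 in MDA-MB231 and 0.65 in Hs578T, beside −0.0039 and 0.026 for all genes. Over all 22 FGF genes, intracellular factors included, the medians were 0.11 and 0.13. In MDA-MB231 the median of the 5 ligands is the value of FGF7, which lay below the dim yardstick on all 4 arrays. The medians and the counts of higher genes include FGF5, whose values chose the family. The other listed genes, FGF1 and FGF2 among them, were also chosen with earlier results of these data known. The counts therefore describe the list and were not tested. At a smaller size, 0.32 log2, FGF1 and FGF5 were the genes past the threshold in MDA-MB231. At 2-fold, FGF1 was the gene past it in Hs578T. The shares of all genes at 0.32 log2 and at 2-fold were not counted. Whether a gene's response to FBP1 differed between the lines could not be tested, because 1 array per line and construct leaves no error for that comparison.

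**Figure D2:**
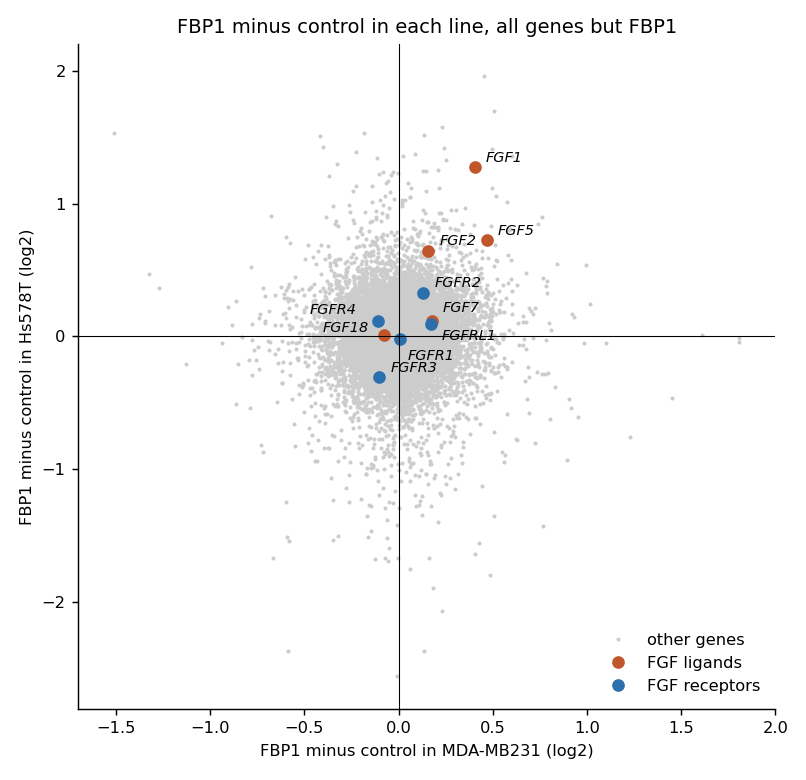
Difference between FBP1 and control arrays in MDA-MB231 (horizontal axis, log2) and in Hs578T (vertical axis, log2), with 1 point per gene, all genes but FBP1 in grey, the 5 ligands in orange and the 5 receptors in blue. FGF1 (0.41 and 1.27) and FGF5 (0.47 and 0.72) lie to the upper right, and FGFR1 (0.01 and −0.02) lies near the origin.

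Because FGF1, FGF2 and FGF5 were the ligands higher by 1.5-fold with FBP1 in Hs578T, the bases just before their transcription starts are shown. RefSeq windows on GRCh38.p14 were given for 9 of the 10 genes, 250 bases before the start, and the window farthest upstream is printed where a gene has several. Capitals mark matches on either strand to GGGCGG, the GC box bound by SP and KLF factors. The window of FGF5 is chr4:80266338-80266587 on the plus strand, that of FGF2 is chr4:122826581-122826830 on the plus strand, and that of FGF1 is chr5:142698071-142698320 on the minus strand.
FGF5: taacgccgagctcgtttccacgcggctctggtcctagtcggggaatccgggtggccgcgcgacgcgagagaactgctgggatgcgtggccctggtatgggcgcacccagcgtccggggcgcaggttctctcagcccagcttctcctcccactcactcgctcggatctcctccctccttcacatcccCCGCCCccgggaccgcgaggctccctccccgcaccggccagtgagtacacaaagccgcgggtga
FGF2: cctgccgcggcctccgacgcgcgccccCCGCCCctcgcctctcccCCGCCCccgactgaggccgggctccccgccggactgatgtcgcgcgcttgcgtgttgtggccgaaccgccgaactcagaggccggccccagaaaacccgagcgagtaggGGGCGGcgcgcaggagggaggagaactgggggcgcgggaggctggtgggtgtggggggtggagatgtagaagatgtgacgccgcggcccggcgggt
FGF1: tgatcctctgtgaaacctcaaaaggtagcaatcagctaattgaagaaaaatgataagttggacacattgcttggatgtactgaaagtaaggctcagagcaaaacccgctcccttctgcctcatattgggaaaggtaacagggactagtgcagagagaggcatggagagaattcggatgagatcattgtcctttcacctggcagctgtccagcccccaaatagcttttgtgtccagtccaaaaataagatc
The FGF5 window held 1 GGGCGG match, 64 bases before the start, and the FGF2 window held 3. The printed FGF1 window held 0, while 2 of the 3 other FGF1 windows held 1 match each. The match was not particular to these ligands. Among genes that stayed below 1.5-fold in both lines, the window farthest upstream held 8 matches for FGFR3, 7 for FGFR4 and 4 for FGFRL1. FGF18 and FGFR2 had 3 each there, and FGF7 had 0. Of 34943 such windows, 42.5% held the motif. Further motifs were searched on both strands, with overlaps allowed, and 0 of them matched the printed windows. In windows not printed, the one of FGF1 farthest downstream held 1 AP-1 and 2 TEAD matches. The other FGF5 window held 2 overlapping TATA box matches, 215 and 213 bases before its start. Among all windows, the AP-1 motif TGANTCA was present in 6.59%, the E-box CACGTG in 6.32%, the ETS motif CCGGAAG in 8.48%, the TEAD motif GGAATG in 11.9% and the TATA box TATAAA in 10.8%. The cAMP response element TGACGTCA was present in 1.63%. GC content was 68.8% for FGF5, 75.2% for FGF2 and 44.8% for FGF1, against a median of 58% over all windows.

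FGFR1, the receptor that FGF1, FGF2 and FGF5 all activate, was nearly level within each line. It gave 11.06 (control) and 11.07 (FBP1) for MDA-MB231, against 10.73 and 10.71 for Hs578T. Both MDA-MB231 arrays were above both Hs578T arrays. FGFR2, whose splice forms divide its ligands between epithelium and mesenchyme, gave 7.78 and 7.91 for MDA-MB231 and 6.72 and 7.05 for Hs578T, control before FBP1. FGFR3, known for restraining bone growth, gave 7.86 and 7.76 for MDA-MB231 and 8.56 and 8.25 for Hs578T, and its values were higher in Hs578T. With FBP1 in Hs578T, FGFR2 was 1.26-fold higher (log2 0.33) and FGFR3 1.24-fold lower (log2 −0.31). These were the largest differences of the 5 receptors in either line. Both lay between the 5th and 95th percentiles of all genes in Hs578T, −0.36 and 0.36.

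FGFR4, the receptor of endocrine FGF19 in liver, gave 7.93 and 7.82 for MDA-MB231 and 7.80 and 7.91 for Hs578T, so that the lines overlapped. FGFRL1, which binds FGFs but lacks the kinase domain of the other receptors, gave 10.27 and 10.45 for MDA-MB231 and 10.33 and 10.43 for Hs578T. It was 1.13-fold higher with FBP1 in MDA-MB231 and 1.07-fold higher in Hs578T. The median difference of the 5 receptors was 0.0070 in MDA-MB231 and 0.097 in Hs578T.

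The lines themselves were then compared, with 2 arrays per line and the construct as a term of a limma fit over all genes. FGF2 and FGF5 were higher in Hs578T and FGFR2 in MDA-MB231, with smaller differences for FGFR3 and FGFR1. Of the 10 genes, 5 were called at an adjusted p under 0.05, against 36% of all genes. FGF2, FGF5 and FGFR3 were called higher in Hs578T (16.9% of all genes were) and FGFR1 and FGFR2 higher in MDA-MB231 (19% were). The error behind the p-values had 1 residual degree of freedom, from how unequal the line difference was between control and FBP1 arrays. More of its weight came from a prior fitted over all genes, with 5.09 degrees of freedom. Neither part measures the spread of repeated cultures.

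FGF2 was 17.3-fold higher in Hs578T (4.11 log2, SE 0.14, adjusted p = 1.15e-05). The difference was 3.87 log2 between control arrays and 4.36 between FBP1 arrays. Among all genes, 1.34% were higher in Hs578T by at least 2 log2 in both constructs. Fibroblast markers moved with it: COL1A1, COL1A2, PDGFRB, DCN and LUM were all 5 called higher in Hs578T, against 16.9% of all genes. Their summed level was 10.09 and 9.90 log2 in MDA-MB231 and 14.13 and 14.01 in Hs578T. The part of these markers in the FGF2 difference was not tested.

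FGF5 was 1.85-fold higher in Hs578T (0.88 log2, SE 0.11, adjusted p = 0.00164), with differences of 0.76 between control arrays and 1.01 between FBP1 arrays. FGFR2 was 1.94-fold higher in MDA-MB231 (0.96 log2, SE 0.11, adjusted p = 0.00125). FGFR3 was higher in Hs578T by 0.59 log2 (SE 0.11, adjusted p = 0.00843), and FGFR1 was 1.27-fold higher in MDA-MB231 (0.35 log2, SE 0.09, adjusted p = 0.0273). With any 1 array left out and the construct dropped from the model, the calls of FGF2 and FGFR2 held, with adjusted p up to 0.00157 and 0.0323. The call of FGF5 was lost without the MDA-MB231 control array (adjusted p = 0.228), without the MDA-MB231 FBP1 array (0.0686) and without the Hs578T FBP1 array (0.066). Its difference, 0.88 log2 with all arrays, was then 0.65, 1.12 and 0.52 log2 higher in Hs578T. The calls of FGFR1 and FGFR3 were lost without the MDA-MB231 control array and without the MDA-MB231 FBP1 array.

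FGF1 did not pass the test of the line difference (adjusted p = 0.334). Its control arrays differed by 0.72 log2 with MDA-MB231 the higher, and its FBP1 arrays by 0.14 log2 with Hs578T the higher. Left out in turn, the Hs578T arrays set its direction: the difference was −0.35 without the Hs578T control and 0.93, called at an adjusted p of 0.00612, without the Hs578T FBP1 array. FGF7, FGF18, FGFR4 and FGFRL1 lay within 0.07 log2 between the lines and were not called, with adjusted p of 0.664 to 0.925.

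**Figure D3:**
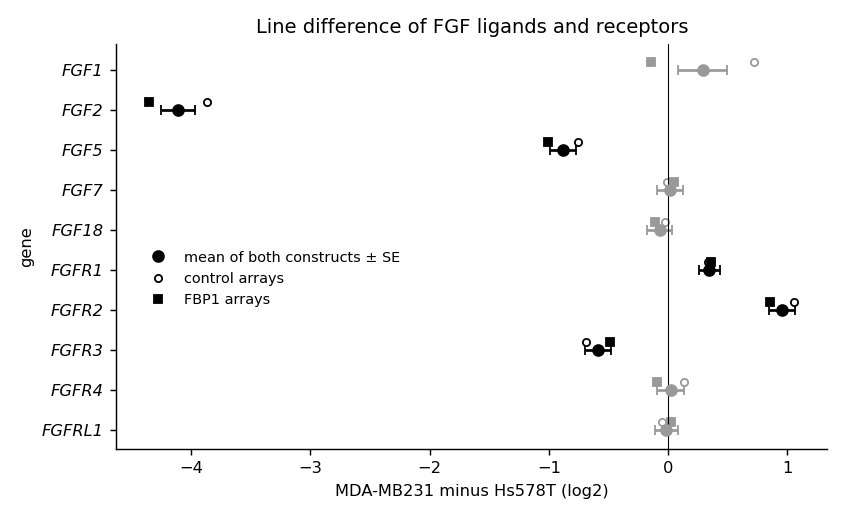
Difference in log2 intensity between MDA-MB231 and Hs578T (horizontal axis) for each gene (vertical axis). Large circles are means over both constructs with the limma standard error, small open circles the control arrays and small squares the FBP1 arrays, and black marks genes called at an adjusted p under 0.05. FGF2 lies farthest to the left, at −4.11, and FGFR2 farthest to the right, at 0.96.

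Of the remaining 17 genes of the FGF family, which are 10 other paracrine ligands, 3 endocrine ligands and 4 intracellular homologous factors, 0 differed by 1.5-fold with FBP1 in either line. The largest difference among them was 0.42 log2, for FGF23, the phosphate-regulating hormone of bone, in Hs578T, and in MDA-MB231 it was −0.30, for FGF3. Of all 22 FGF genes, 16 lay above 0 in MDA-MB231, where 48.6% of all genes did, and 19 in Hs578T, where 55.8% did. Between the lines, limma called 1 of the 17, against 36% of all genes. It was FGF14, an intracellular factor that binds sodium channels, 1.42-fold higher in Hs578T (adjusted p = 0.0206) and below the dim yardstick on all 4 arrays. That call was lost without the MDA-MB231 control array (adjusted p = 0.123).

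Among 10 measured co-receptors and binding proteins, NCAM1, an adhesion molecule that can bind FGFR1, was 1.63-fold higher with FBP1 in Hs578T (log2 0.71, and 0.10 in MDA-MB231). It was the gene of that list past 1.5-fold. The list's medians were −0.12 in MDA-MB231 and 0.12 in Hs578T. Between the lines 4 of the 10 were called higher in Hs578T and 1 in MDA-MB231, against 16.9% and 19% of all genes. N-cadherin (CDH2), which can hold FGFR1 at the surface, was 49.1-fold higher in Hs578T (adjusted p = 4.00e-06). The FGFR1-binding membrane proteins FLRT3 (4.89-fold, adjusted p = 0.000674) and FLRT2 (2.26-fold, adjusted p = 0.00247) were also higher there. NCAM1 was 1.60-fold higher in MDA-MB231 (adjusted p = 0.0191), a call that was lost without either MDA-MB231 array (adjusted p up to 0.235).

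Heparan sulfate, the FGF co-receptor sugar, was represented by 11 core proteins and 19 enzymes. Of the core proteins, 7 were called higher in Hs578T and 0 in MDA-MB231, against 16.9% and 19% of all genes. Their median was −0.40 log2 for MDA-MB231 minus Hs578T, beside −0.025 for all genes. The glypican gene GPC6 was 12.1-fold higher in Hs578T (adjusted p = 9.25e-05), the syndecan gene SDC2 2.34-fold (adjusted p = 0.000167) and GPC1 1.53-fold (adjusted p = 0.00702, and up to 0.167 without an MDA-MB231 array). With FBP1, GPC6 differed by 0.32 for MDA-MB231 and −0.61 for Hs578T, and it was the core protein gene that reached 1.5-fold. Of the 19 enzymes, 10 were called higher in Hs578T and 1 in MDA-MB231, against the same shares of all genes. SULF1, which removes sulfates that FGF signalling needs, was 20.3-fold higher in Hs578T (adjusted p = 4.73e-06), and EXTL2, a glycosyltransferase, 1.96-fold (adjusted p = 0.000844). The 6-O-sulfotransferase gene HS6ST3 was 2.00-fold higher in Hs578T (adjusted p = 0.00211, and up to 0.0836 without an MDA-MB231 array). With FBP1, HS6ST3 was at 0.19 and 0.60, the 3-O-sulfotransferase gene HS3ST3B1 at 0.12 and −0.84, and the dim NDST3, an N-deacetylase and N-sulfotransferase gene, at −0.69 and −0.04.

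Downstream of the receptors, feedback inhibitors were mostly higher in MDA-MB231. Of 12, 8 were called higher in MDA-MB231 and 1 in Hs578T, against 19% and 16.9% of all genes. The median difference of the 12 was 0.85 log2. The ERK phosphatase genes DUSP4 (9.74-fold, adjusted p = 2.17e-05) and DUSP6 (3.42-fold, adjusted p = 8.37e-05) and the Sprouty gene SPRY1 (3.00-fold, adjusted p = 0.000855) differed most. DUSP6 gave 11.30 and 11.04 for MDA-MB231 and 9.43 and 9.36 for Hs578T, control before FBP1. With FBP1, 0 of the 12 reached 1.5-fold in either line. The list's median difference was −0.061 for MDA-MB231 and 0.058 for Hs578T.

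Of 11 genes induced by ERK, 4 were called higher in MDA-MB231 and 3 in Hs578T, against 19% and 16.9% of all genes. ETV4, an ETS factor, was 3.36-fold higher in MDA-MB231 (adjusted p = 0.00114) and PHLDA1 1.53-fold (adjusted p = 0.00145). The early response gene EGR1 was 1.96-fold higher in Hs578T (adjusted p = 0.00476, and up to 0.205 without an MDA-MB231 array). With FBP1, ETV4 differed by −0.15 for MDA-MB231 and 0.69 for Hs578T, and EGR1 by −0.29 and −0.91, so that these targets lay on opposite sides in Hs578T. The medians of the list were −0.093 and −0.018.

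Among 14 measured adaptors and kinases of the cascade, 0 differed by 1.5-fold with FBP1, and their medians were 0.032 and −0.052. The RAS exchange factor gene SOS2 (1.72-fold, adjusted p = 0.00119) and the FGF receptor adaptor gene FRS3 (1.65-fold, adjusted p = 0.00327) were higher in MDA-MB231, and SOS1 (0.59 log2, adjusted p = 0.00286) was higher in Hs578T. In all 5 of 14 were called higher in MDA-MB231 and 2 in Hs578T, against 19% and 16.9% of all genes. Another 7 listed genes of the cascade, FRS2 among them, were not analysed here.

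**Figure D4:**
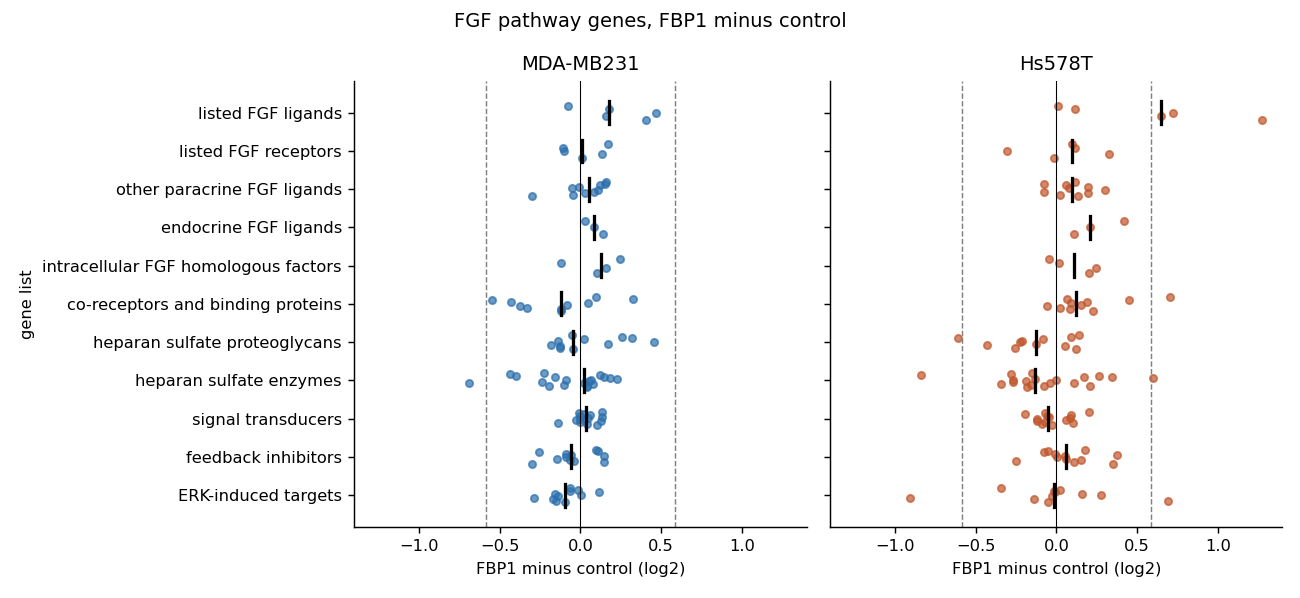
Difference between FBP1 and control arrays (horizontal axis, log2) in MDA-MB231 (left) and Hs578T (right) for the genes of each list (vertical axis), with 1 point per gene, a black bar at the list's median and dashed lines at 1.5-fold. The listed ligands have medians of 0.18 and 0.65, and the feedback inhibitors of −0.061 and 0.058.

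The genes whose pattern over the 4 arrays was most like that of FGF5 were found by the root mean square difference between log2 profiles, each centred on its own mean. They were ELOVL2 (0.073 log2), which elongates polyunsaturated fatty acids, COL6A6 (0.099), a collagen VI chain, VGLL3 (0.10), a cofactor of TEAD factors, ADAMTS6 (0.12), a metalloprotease, and HS6ST3 (0.12). With FBP1, ELOVL2 differed by 0.47 for MDA-MB231 and 0.59 for Hs578T, and VGLL3 by 0.26 and 0.65. ELOVL2 was below the dim yardstick on 2 arrays and COL6A6 on 1. With 4 arrays many profiles look alike, and the likeness is a description of these arrays.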

How the data were processed

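RNA from 4 cell groups, 1 array each, was analysed from log2 expression values of 33297 probe sets deposited by the authors. Affymetrix Expression Console 1.1.2800.28061 was used, per the submitters' processing notes. Array normalization was not given in the sources used here. A log2 scale follows from the range, 2.40 to 14.81. Probe sets with 1 annotated gene (19460) were kept, and the probe set with the highest mean represented each gene, with no intensity filter. Differences were computed per line, and line and construct were fitted over all 4 arrays (limma 3.58.1, R 4.3.3) with an intensity trend and Benjamini-Hochberg adjustment over 18417 genes. That fit has 1 residual degree of freedom and a prior of 5.09. In simulated data with 18417 genes, 50 genes were shifted by each of log2 0.5, 1, 2 and 4, with no construct effect. The line comparison recovered 16% of the shifts of 0.5, 96% of 1 and 100% of 2 and 4, making 156 true and 16 false calls. On the real arrays 36% of genes were called, a far larger share than was shifted. These recovery rates therefore do not carry over to the real arrays. The genes, gene lists and sizes were chosen with earlier results of these data known. Named genes were the 10 listed, up to 4 per list with the largest mean change among those at 1.5-fold and up to 3 with the largest called line difference, the 5 patterns nearest to FGF5 and its chromosomal neighbours. FGF3, FGF23 and the cell type markers are named beside counts. Alternatives covered scaling, probe set choice, a filter, the prior, the construct term, left-out arrays and the fold size. The number of arrays limits the precision of every value.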

Additional observations from a re-analysis of the deposited data

Results flagged for a closer look

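FLRT3, a membrane protein that binds FGFR1, differed in opposite directions with FBP1 in the lines, at −0.55 log2 in MDA-MB231 and 0.45 in Hs578T. It was singled out because both differences exceeded 0.32 log2, a size applied after the data were seen. Each value rests on 1 array per group, and whether the lines differ was not tested.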

How the results depend on the processing

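Among the 10 FGF genes, all 78 recomputed differences between FBP1 and control moved by less than the standard deviation of all genes' differences in that line (0.17 and 0.25). Each gene had 1 probe set, so probe set choice and the intensity filter could not change a value, and only the scaling could. In Hs578T, FGF18 changed sign, from 0.0092 to −0.0067 with quantile normalization and −0.0015 with arrays centred on their medians. Counts of the 10 genes moved with the fold size: at 0.32 log2 2 genes were higher in MDA-MB231, and at 2-fold 1 was higher in Hs578T. Over the pathway lists, genes lower in MDA-MB231 numbered 1 at 1.5-fold, 0 at 2-fold, 7 at 0.32 log2 and 0 with the filter, and genes higher there 2 at 0.32 log2. In Hs578T, 0 were higher and 0 lower at 2-fold, and 8 and 6 at 0.32 log2, against 3 and 3. Because all genes were not counted at 0.32 log2 and 2-fold, the counts at these sizes have no background beside them. For the line difference, 91 of 109 recomputed tests kept direction and side of the threshold. Changes of probe set choice, filter, prior or construct term left each difference as it was. In those settings only the call could change, not the direction. Each line difference is the mean of its values between control arrays and between FBP1 arrays. At least 1 of the 2 values therefore keeps its sign by arithmetic. Taken alone, with no test, 16 of 20 values kept it. The sign differed between constructs for 4 of the 10 genes. These were FGF1 (−0.14), FGFR4 (−0.092) and FGFRL1 (0.023) between FBP1 arrays and FGF7 (−0.013) between control arrays. Leaving out each array, with cell line only in the model, gave 1 to 3 FGF genes higher in MDA-MB231 and 1 to 3 higher in Hs578T, and 12 to 20 and 14 to 28 pathway genes, against 19 and 28 with all arrays. These settings have fewer arrays, and the share of all genes called in them was not counted. A change in these genes therefore cannot be told from a change in all genes. Of the genes not called between the lines, FGF18 kept its direction in every setting run, and FGF1, FGF7, FGFR4 and FGFRL1 did not. Over left-out arrays, FGF1 ranged from −0.35 to 0.93, FGF7 from −0.070 to 0.11 (−0.039 without the Hs578T control), FGFR4 from −0.037 to 0.079 (−0.034 without the MDA-MB231 control) and FGFRL1 from −0.10 to 0.071 (0.033 without Hs578T with FBP1). With arrays centred on their medians FGF7 was at −0.0040 and FGFR4 at −0.0011, and with quantile normalization FGFR4 was at −0.00074. The labels number no replicates, and the construct is a term of the fit, so that the lines were compared within constructs. What repeated cultures would show is limited by the 4 arrays.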

Other observations

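The 4 measured protein-coding genes nearest to FGF5 on chromosome 4 were read from RefSeq gene order. On one side were ANTXR2, an anthrax toxin receptor that binds matrix proteins (−0.07 log2 with FBP1 in MDA-MB231 and 0.35 in Hs578T), and PRDM8, a transcriptional repressor (−0.07 and 0.35). On the other were CFAP299 (0.22 and 0.09), which was below the dim yardstick on all 4 arrays, and BMP3, a bone morphogenetic protein (0.20 and 0.46).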
